A study of Sus scrofa with 31 samples.

Results

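CYFIP2, RAC2 and EZR are 3 pig genes whose proteins act on the actin skeleton under the cell membrane. They were taken by gene symbol from the tables of both study arms, as 3 of 21313 genes listed in arm 1 and 3 of 25149 in arm 2. They were chosen by their arm 1 levels in hearts labelled HOPE against hearts labelled SCS, so differences between those hearts are given as a description, with no test. All 3 genes had mean levels above the minimum set for testing in both arms.

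The series profiled pig (Sus scrofa) myocardium by RNA sequencing during heart preservation. Arm 1 holds 24 libraries from 6 pigs biopsied at 0, 12, 24 and 48 h. Pigs 1, 3 and 5 carried the label SCS and pigs 2, 4 and 6 the label HOPE, so each group had 3 libraries. Arm 2 holds 7 libraries from hearts that were stored and then perfused at body temperature on a machine for 2 h (normothermic machine perfusion, NMP). HOPE storage of 3, 24 or 48 h is represented by a pair of libraries each, and SCS storage of 24 h by a single library. The abbreviations are not written out in the labels and in heart preservation usually stand for static cold storage and hypothermic oxygenated perfusion. They give no breed, sex, age or genetic change for the animals, and they do not say whether the 0 h biopsy was taken before or after the start of preservation. Pigs were not shared between SCS and HOPE, so the treatment and the animals cannot be told apart in that comparison.

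The labels name cardiomyocytes as the cell type, whereas the tissue was whole myocardium. Cardiomyocyte marker genes summed to 1017060 to 1836930 normalized counts in the arm 1 libraries, and markers of endothelium, fibroblasts, smooth muscle and leukocytes were present in all 24. In bulk tissue, fewer cells of a type and less RNA per cell cannot be told apart. Arm 1 depth was 19722065 to 35099406 reads per library. Mitochondrially encoded genes held 29.0 to 39.5% of the counts in HOPE and 33.1 to 82.4% in SCS, with the highest share in pig 5 at 48 h of SCS. The SCS library of arm 2 stood apart from the HOPE libraries of that arm. Its cardiomyocyte markers summed to 2515 TPM (reads per gene length, set to an equal sum in each library), against 39419 to 63067 in the 6 HOPE libraries, and its red cell markers to 6161 TPM against 34.2 to 3125.

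Actin filaments branch when the WAVE regulatory complex is switched on by a Rac GTPase and in turn activates the Arp2/3 complex. CYFIP2 and its relative CYFIP1 are alternative subunits of the WAVE complex and carry its Rac-binding surface. CYFIP2 is best known from neurons and lymphocytes. RAC2 is the Rac GTPase of blood cells, where it also serves the NADPH oxidase of phagocytes, while RAC1 is found in nearly all cells. EZR encodes ezrin, which with radixin (RDX) and moesin (MSN) ties membrane proteins to actin filaments. Ezrin is best known from epithelia, and moesin from endothelium and leukocytes.

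In the RefSeq annotation of Sscrofa11.1, the protein-coding CYFIP2 gene lies on chromosome 16 from 65852584 to 66001576. RAC2 lies on chromosome 5 from 10553986 to 10571082, and EZR on chromosome 1 from 8403362 to 8452750. The files name them as ENSSSCG00000017054, ENSSSCG00000021944 and ENSSSCG00000004058. The values count reads over the whole gene and do not separate exons or transcripts.

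CYFIP2 was the gene with the widest gap between the hearts. In SCS it stood at 226, 240 and 115 normalized counts in pigs 1, 3 and 5 at 0 h, at 325, 244 and 343 at 12 h, at 314, 298 and 182 at 24 h, and at 343, 227 and 152 at 48 h. In HOPE it stood at 1877, 1215 and 548 in pigs 2, 4 and 6 at 0 h, at 2678, 602 and 1110 at 12 h, at 1874, 464 and 647 at 24 h, and at 2633, 1217 and 820 at 48 h. The groups did not overlap at any of the 4 times, 0 h included. The share of all genes without overlap is not given here, for CYFIP2 or for the other genes below. The genes were also chosen by these levels, so the absence of overlap is a description only. By an adjusted limma test, a different measure, 0%, 0.0141%, 2.04% and 6.25% of all genes were called at 0, 12, 24 and 48 h. The HOPE mean was 6.27 times the SCS mean at 0 h, 4.81 times at 12 h, 3.76 times at 24 h and 6.47 times at 48 h. On the log2(normalized count + 1) scale the differences were 2.54, 2.01, 1.68 and 2.59, each with an SE of 0.57. The gap at 48 h was thus 0.05 away from the gap already present at 0 h. The SE of this was 0.80 without a term for the pig and 0.43 with it.

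Among the 3 genes, CYFIP2 also varied most between pigs of 1 group. Pig 2 had the highest HOPE value at every time, with a mean over its 4 biopsies of 2265 normalized counts, against 875 in pig 4 and 781 in pig 6. The 12 HOPE libraries spanned a 5.77-fold range, from 464 to 2678, and the 12 SCS libraries a 2.98-fold range, from 115 to 343. Ordered by mean, the groups ran from HOPE at 48 h (1557 ± 953; SD, n = 3) through HOPE at 12 h (1463 ± 1082), 0 h (1213 ± 665) and 24 h (995 ± 766), and neighbours in this order overlapped. SCS at 12 h (304 ± 53.1), 24 h (265 ± 72.0), 48 h (240.6 ± 96.3) and 0 h (194 ± 68.2) came next, again with overlap between neighbours. The step from HOPE at 24 h to SCS at 12 h was the only one between neighbours without overlap.

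RAC2 went the other way, lower in HOPE than in SCS. In SCS it stood at 339, 285 and 254 normalized counts in pigs 1, 3 and 5 at 0 h, at 272, 367 and 322 at 12 h, at 223, 334 and 256 at 24 h, and at 198, 280 and 181 at 48 h. In HOPE it stood at 164, 165 and 235 in pigs 2, 4 and 6 at 0 h, at 90.6, 97.0 and 130.3 at 12 h, at 107, 111 and 93.1 at 24 h, and at 93.3, 91.6 and 165 at 48 h. The groups were apart at all 4 times, narrowly at 0 h, where the highest HOPE library had 235 and the lowest SCS library 254. The SCS mean was 1.56 times the HOPE mean at 0 h, 3.02 times at 12 h, 2.61 times at 24 h and 1.88 times at 48 h. The log2 differences, HOPE minus SCS, were -0.65, -1.59, -1.36 and -0.94, each with an SE of 0.25. The difference at 48 h depended on scaling: it was 0.17, the other sign, when libraries were scaled to equal total counts, where the median of all genes moved to 1.12. In the deposited scaling the difference moved from that at 0 h by -0.95, -0.71 and -0.29 at 12, 24 and 48 h. The SE of each move was 0.35 without a term for the pig and 0.28 with it. In group order RAC2 ran from SCS at 12 h (320 ± 47.3; SD, n = 3) down to HOPE at 24 h (104 ± 9.45), with every pair of neighbouring groups overlapping.

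EZR, the most read of the 3 genes, was the one whose gap widened at each later time. In SCS it stood at 2685, 2218 and 2240 normalized counts in pigs 1, 3 and 5 at 0 h, at 3184, 1936 and 2302 at 12 h, at 2387, 1486 and 1750 at 24 h, and at 1869, 1259 and 1260 at 48 h. In HOPE it stood at 4422, 3787 and 2259 in pigs 2, 4 and 6 at 0 h, at 4450, 3887 and 3643 at 12 h, at 5096, 4322 and 3948 at 24 h, and at 5272, 4717 and 3957 at 48 h. The groups overlapped at 0 h, through pig 6 of HOPE, and at no later time. The HOPE mean was 1.47 times the SCS mean at 0 h, 1.61 times at 12 h, 2.38 times at 24 h and 3.18 times at 48 h. The log2 differences were 0.50, 0.72, 1.27 and 1.68, each with an SE of 0.24. The difference at 48 h thus exceeded that at 0 h by 1.18. The SE of this was 0.35 without a term for the pig and 0.19 with it. Scaling to equal total counts kept the sign and gave 1.19, 1.65 and 2.80 at 12, 24 and 48 h. The HOPE groups ran from 4649 ± 660.2 at 48 h to 3489 ± 1112 at 0 h and the SCS groups from 2474 ± 641 at 12 h to 1463 ± 352 at 48 h (SD, n = 3), and each neighbour in the order overlapped the next.

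**Figure D1:**
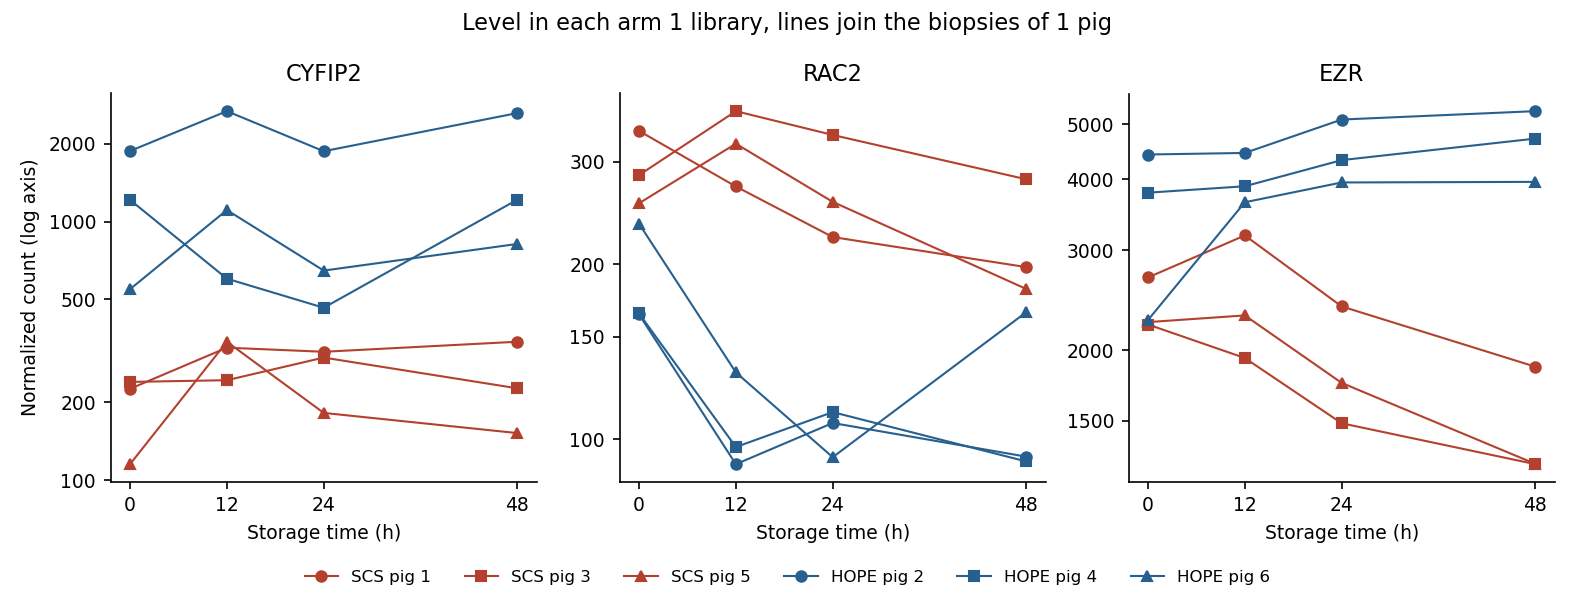
Normalized count of CYFIP2, RAC2 and EZR (log axis) in each of the 24 arm 1 libraries against storage time in h, with a line for each pig, SCS in red and HOPE in blue. CYFIP2 runs above SCS in HOPE and RAC2 below it at all 4 times, while EZR separates after 0 h, where pig 6 of HOPE lies at 2259 among the SCS pigs.

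The HOPE library of pig 6 at 0 h lay nearest to the SCS libraries of that time for all 3 genes. It also held an endothelial marker sum of 51818 normalized counts, against 22988 and 16447 in pigs 2 and 4 at 0 h of HOPE, an adipocyte marker sum of 6925 against 1852 and 1413, and a leukocyte marker sum of 5262 against 3655 and 3869. The part of these markers in the values of the 3 genes was not tested. The precision of the levels differed by gene: the thinnest library held 52 reads of CYFIP2 (exact Poisson 95% interval 38.8 to 68.2), 62 of RAC2 (47.5 to 79.5) and 431 of EZR (391 to 474). These intervals cover counting error only, and the spread between pigs was wider.

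Storage time within a preservation method did not itself choose the genes, and was tested with limma on log2(normalized count + 1) over 14141 genes. The values tested also entered the HOPE and SCS differences by which the members were chosen. The p-values of members here are therefore not independent of that choice and may be too small. Without a term for the pig, none of the 18 tests of a member against 0 h passed at an adjusted p of 0.05. Of these, 4 had an unadjusted p below 0.05. The background was as low: the share of all genes called was 0% at 12, 24 and 48 h in both SCS and HOPE. The edgeR and DESeq2 tests on recovered whole reads, also without the pig, called 0 of the 18 and gave 4 at the unadjusted level. With the pig as a block in limma 1 of the 18 passed, EZR at 48 h of SCS, and 9 had an unadjusted p below 0.05.

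EZR fell in SCS at 48 h once each pig was compared with itself. Pigs 1, 3 and 5 changed from 0 h to 48 h by -0.52, -0.82 and -0.83 on the log2 scale, so the biopsies kept 0.696, 0.567 and 0.563 of the 0 h level. The mean change of -0.72 had an SE of 0.24 without the pig term (limma adjusted p = 0.492) and of 0.13 with it (limma adjusted p = 0.0178). That fit with the pig as a block called 2.18% of all genes at 48 h of SCS. The 48 h values tested here also entered the choice of EZR. The call was lost without SCS pig 5 (limma adjusted p = 0.114) or its 48 h library alone (0.0792). It held without SCS pig 1 (0.0162) or pig 3 (0.0350). HOPE pigs enter this test only through the shared spread and the adjustment over genes. Without HOPE pig 2 (0.0682) or pig 4 (0.0589) the change stayed at -0.72 but the call was lost. Without HOPE pig 6 it held (0.0358). In the SCS biopsies the mitochondrial share went from 35.9 to 52.5% at 0 h to 48.0 to 82.4% at 48 h. Its part in the EZR change was not tested. Scaled to equal total counts, EZR differed by -1.70 and passed without the block too (limma adjusted p = 0.0154), beside a median of -0.99 over all genes.

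In HOPE, EZR moved the opposite way within each pig. At 48 h it stood 0.25, 0.32 and 0.81 above 0 h on the log2 scale in pigs 2, 4 and 6, a mean of 0.46 with an SE of 0.13 in limma with the pig block (adjusted p = 0.380). At 24 h the 3 values were 0.20, 0.19 and 0.81, with a mean of 0.40. The largest of these came from pig 6, whose 0 h level was the low one. In the fit without the pig term, leaving out that 0 h library gave -0.04 at 12 h in place of 0.25. That fit no longer compares pig 6 with itself. Within pigs 2 and 4 the changes at 12 h were 0.009 and 0.038. At 24 and 48 h EZR was thus below its 0 h level in 3 of 3 SCS pigs and above it in 3 of 3 HOPE pigs.

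RAC2 was below its 0 h level at every later time in 3 of 3 HOPE pigs. The 12 h biopsies differed by -0.85, -0.76 and -0.84 on the log2 scale in pigs 2, 4 and 6, the 24 h biopsies by -0.62, -0.56 and -1.32, and the 48 h biopsies by -0.81, -0.84 and -0.50. The means were -0.82, -0.83 and -0.72, each with an SE of 0.25 without the pig block and of 0.20 with it. Their unadjusted limma p-values without the block were 0.00354, 0.00303 and 0.00895. None passed after adjustment over all genes, where the pig block gave limma adjusted p-values of 0.998, 0.429 and 0.374. That block called 0.00707% of all genes at 48 h of HOPE. In SCS the RAC2 changes were mixed at 12 h, with -0.32, 0.36 and 0.34 in pigs 1, 3 and 5, and at 48 h they were -0.78, -0.02 and -0.49. Their mean at 48 h was -0.43 ± 0.25 (SE; limma adjusted p = 0.694). Scaled to equal total counts it was -1.40 and passed (limma adjusted p = 0.0214), beside the median of -0.99 over all genes.

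CYFIP2 showed no common course. At 48 h it stood 0.60, -0.08 and 0.40 from its 0 h level in SCS pigs 1, 3 and 5, and 0.49, 0.00 and 0.58 in HOPE pigs 2, 4 and 6. At 12 h pig 4 of HOPE was down by 1.01 while pig 6 was up by 1.02, and in SCS pig 5 was up by 1.57 from the lowest 0 h value of the series. The mean changes ran from -0.38 to 0.70 over the 6 comparisons, each with an SE of 0.57 without the pig block and of 0.30 with it.

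**Figure D2:**
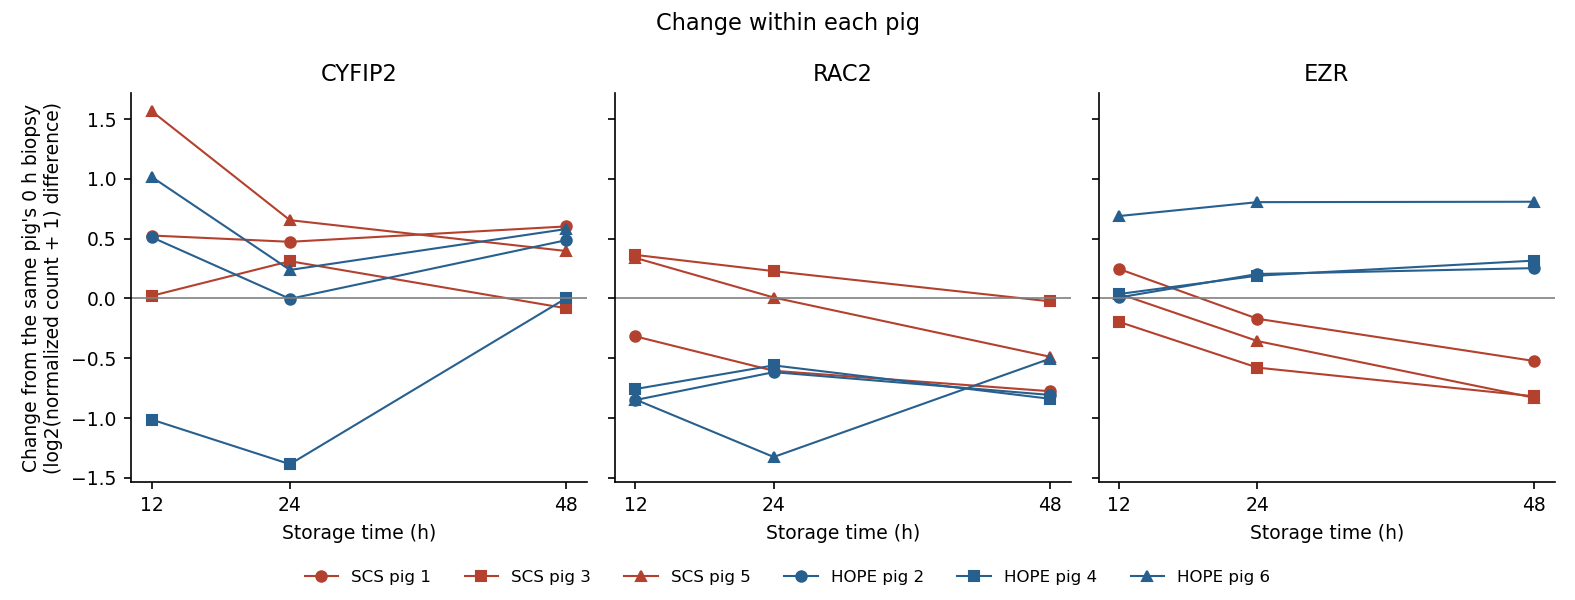
Change of each pig from its own 0 h biopsy, as a difference in log2(normalized count + 1), at 12, 24 and 48 h, SCS in red and HOPE in blue. The EZR lines part, with every SCS pig below 0 and every HOPE pig above 0 at 24 and 48 h; RAC2 is below 0 in each HOPE pig, and CYFIP2 crosses 0 in both groups.

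Each gene was then set against its closest relatives in the same library. Arm 1 values are not divided by gene length, so a ratio of genes shows unequal change and not which gene is more abundant. CYFIP1, the widely expressed WAVE subunit, held 637 to 1491 normalized counts in SCS and 955 to 1352 in HOPE. The ratio of CYFIP2 to CYFIP1 was 0.0859 to 0.538 in SCS (median 0.188) and 0.389 to 2.18 in HOPE (median 0.950). Only libraries of different storage times overlapped: at each time the 3 HOPE ratios lay above the 3 SCS ratios.

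RAC1, the general Rac, held 4112 to 5130 normalized counts in SCS and 3661 to 4441 in HOPE. It was also lower in HOPE, without overlap at 12, 24 and 48 h, at 0.843, 0.821 and 0.822 of the SCS mean, and its r to RAC2 was 0.790 over the 24 libraries. The ratio of RAC2 to RAC1 was 0.0414 to 0.0824 in SCS and 0.0235 to 0.0529 in HOPE. RAC3, the Rac best known from the nervous system, held 211 to 370.0 normalized counts in SCS and 263 to 374 in HOPE, so it was not lower in HOPE.

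MSN and RDX did not share the higher level of EZR in HOPE. MSN had medians of 7196 normalized counts in SCS and 3893 in HOPE, the reverse of EZR, and RDX had medians of 2019 and 1710.1. Over time RDX shared part of the EZR course. From 0 h it changed on the log2 scale by 0.38, 0.63 and 0.16 at 24 h in HOPE pigs 2, 4 and 6. At 48 h these changes were 0.22, 0.40 and -0.14. In SCS pigs 1, 3 and 5 they were -0.50, -0.09 and 0.23 at 24 h and -0.65, 0.12 and 0.40 at 48 h. The ratio of EZR to RDX was 0.476 to 1.78 in SCS and 1.63 to 3.15 in HOPE. The ratio of EZR to MSN was 0.160 to 0.770 in SCS and 0.305 to 1.43 in HOPE. Pig 1 stood apart among the SCS pigs in the latter, with 0.770 at 48 h against 0.160 and 0.179 in pigs 3 and 5. Its MSN at that time was 2427 normalized counts, against 7854 and 7031, its endothelial marker sum 14108 against 47728 and 52787, and its adipocyte marker sum 1322 against 8702 and 7373. The part of these markers in this ratio was not tested.

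**Figure D3:**
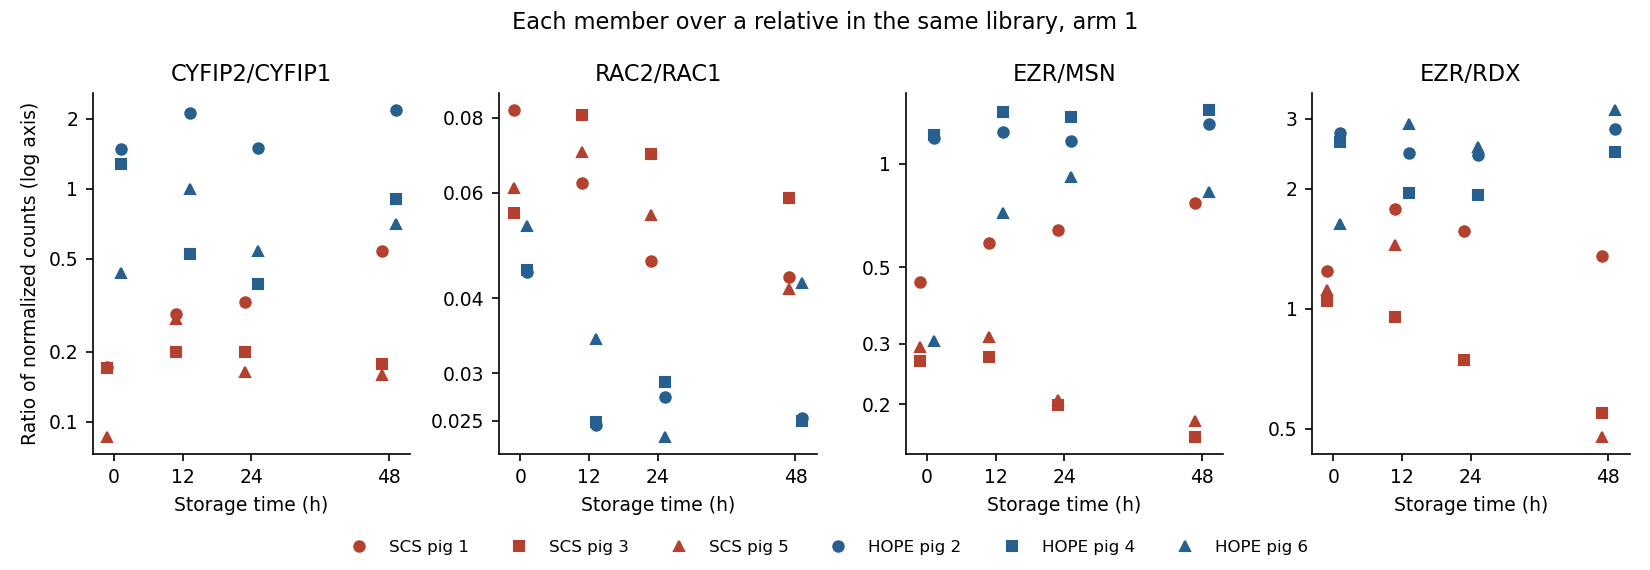
Ratio of normalized counts of a member to a relative in the same arm 1 library (log axes) against storage time in h, each point 1 library, SCS in red and HOPE in blue. CYFIP2 over CYFIP1 lies higher in HOPE at every time, EZR over RDX lies at 1.63 or more in HOPE, and the SCS circles high in EZR over MSN are pig 1.

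RAC2 moved with leukocyte markers across the libraries. The 10 markers of all leukocytes (PTPRC, CD53, CORO1A, LCP1, LAPTM5, ITGB2, CD37, CD48, ARHGDIB and SRGN) were all found and summed to 3262 to 7130 normalized counts in SCS (median 5437) and 3159 to 5262 in HOPE (median 3572). Pearson's r between log2 RAC2 and the log2 sum was 0.905 over the 24 libraries and 0.854 after the group means were removed, and libraries of 1 pig share an animal. Per 1000 counts of these markers, RAC2 stood at 42.7 to 60.6 in the SCS libraries, at 42.5 to 44.9 in HOPE at 0 h and at 26.7 to 36.5 in HOPE from 12 to 48 h. On this scale the HOPE libraries lay below the SCS libraries of the same time at all 4 times, at 0 h by a margin of under 1 count (42.52 to 44.86 against 44.89 to 57.50).

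Against markers of T and NK cells alone the groups did not separate. That list (CD3E, CD3D, CD2, CD5, LCK, CD8A, GNLY, NKG7, GZMB, KLRK1, PRF1 and IL2RB) summed to 1061 to 2504 normalized counts in SCS and 435 to 1652 in HOPE. RAC2 per 1000 counts of it was 133 to 278 in SCS and 138 to 248 in HOPE, and the groups overlapped at each of the 4 times. Macrophage and monocyte markers summed to 4365 to 14275 normalized counts in SCS and 7020 to 12665 in HOPE, with r of 0.346 to RAC2 over the 24 libraries. Neutrophil markers were near 0, at 0 to 19.0 in SCS and 2.94 to 17.4 in HOPE. What part of the RAC2 difference goes with lymphocyte markers was not tested.

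**Figure D4:**
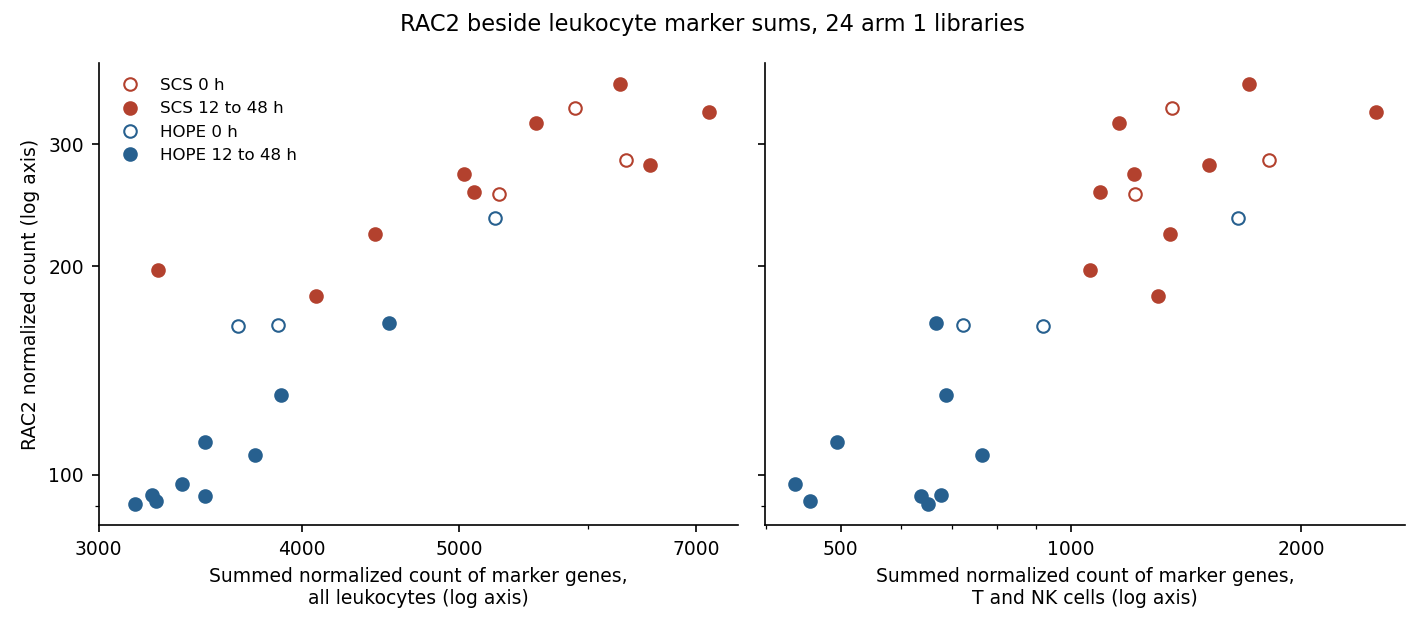
RAC2 normalized count against the summed normalized counts of leukocyte markers (left) and of T and NK cell markers (right) in the 24 arm 1 libraries, both axes log, open points for 0 h and filled points for 12 to 48 h. RAC2 rises along both sums. On the T and NK cell sum the HOPE libraries from 12 to 48 h (at most 765) lie below all SCS libraries (at least 1061). On the leukocyte sum they overlap SCS, with 4531 in pig 6 of HOPE and 3262 in pig 1 of SCS, both at 48 h.

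CYFIP2 and EZR tracked each other and ran against RAC2. Over the 24 libraries r was 0.832 between CYFIP2 and EZR, -0.752 between CYFIP2 and RAC2 and -0.766 between EZR and RAC2. Part of this is the choice of genes by their HOPE and SCS levels. After the 8 group means were removed the values were 0.643, -0.294 and -0.609. Among the marker sums EZR followed cardiomyocyte markers (r of 0.665 over the 24 libraries, 0.583 within groups) and went against markers of endothelium (-0.642 and -0.764), of adipocytes (-0.747 and -0.785), of T and NK cells (-0.800 and -0.535) and of all leukocytes (-0.700 and -0.742). Adipocyte markers, of which 4 of 5 were found, also went against CYFIP2 (-0.775 and -0.520) and with RAC2 (0.810 and 0.630). Their sum was 1322 to 10362 normalized counts in SCS (median 7091) and 1233 to 6925 in HOPE (median 1843), and its part in the differences was not tested. Per 1000 cardiomyocyte marker counts EZR overlapped between SCS and HOPE at 0 h (1.69 to 2.32 and 1.99 to 3.07) and at 12 h (1.37 to 2.56 and 2.47 to 3.22). It did not overlap at 24 h (1.38 to 1.53 and 2.26 to 3.24) or 48 h (1.02 to 1.21 and 2.43 to 3.20). Mesothelium and epithelium markers (8 of 10 found) summed to 234 to 518 normalized counts in SCS and 139 to 595 in HOPE. Their r to EZR was 0.0725 over the 24 libraries and 0.186 within groups, and to CYFIP2 0.337 and 0.717.

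The 5 genes most like each member, by Pearson's r on the log2 scale over the 24 libraries among 9267 named genes with a mean of at least 100, formed different sets. For CYFIP2 they were CUX2 (r of 0.917), EXTL3 (0.915), SUN2 (0.909), ABCA3 (0.902) and DYRK2 (0.901). SUN2, a nuclear envelope protein that links to the cytoskeleton, held 1309 to 2321 normalized counts in SCS and 2439 to 4615 in HOPE. For RAC2 they were GIMAP4, a GTPase of lymphocytes (0.903), CTSW, a cathepsin of cytotoxic lymphocytes (0.903), CORO1A, a coronin of leukocytes that binds actin (0.902), the actin monomer binder TWF1 (0.884) and NKG7, a granule protein of cytotoxic cells (0.875). For EZR they were the translation initiation factor EIF4G1 (0.960), the mitochondrial aspartate-glutamate carrier SLC25A12 (0.948), SPECC1L (0.947), TOB2 (0.941) and the ubiquitin ligase subunit DDB1 (0.940). Spearman's rho for the 15 genes ran from 0.842 for NKG7 to 0.967 for EIF4G1. Part of these values is the choice of the members by their HOPE and SCS levels. After the group means were removed, r was 0.499 (NKG7) to 0.675 (TWF1) for the RAC2 set. It was 0.694 (ABCA3) to 0.859 (DYRK2) for the CYFIP2 set and 0.803 (TOB2) to 0.912 (SPECC1L) for the EZR set. All libraries of a pig share their animal, and all share the authors' scaling.

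The other genes of the machinery were read from 7 lists of 100 genes besides the members, of which 87 were found and 86 tested in arm 1. HOPE minus SCS was negative for 72, 65, 65 and 61 of the 86 at 0, 12, 24 and 48 h. The list medians were -0.29, -0.32, -0.34 and -0.29, against medians over all genes between -0.02 and 0.02. RAC2 shared this sign, and CYFIP2 and EZR had the opposite one. The sign is relative to the scaling: with equal total counts the list medians became -0.17, 0.15, 0.05 and 0.83 beside medians over all genes of 0.11, 0.47, 0.39 and 1.12.

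By test, none of the 86 passed at 0 h or 12 h, where limma called 0% and 0.0141% of all genes. At these times 11 and 24 of the 86 had an unadjusted limma p below 0.05, and edgeR and DESeq2 also called 0. At 24 h 3 of 86 passed, 0 higher and 3 lower in HOPE, against 2.04% of all genes. At 48 h 7 of 86 passed, 1 higher and 6 lower, against 6.25% of all genes. With the pig as a block 20 passed at 24 h (3 higher, 17 lower) and 19 at 48 h (3 higher, 16 lower), against 9.87% and 11.5% of all genes. On whole reads edgeR called 1 and 6 at these times and DESeq2 20 and 18. These counts rested on single pigs: in the fit without the block, 0 of 86 passed at either time without pig 2, 3, 4 or 5, while 29 and 28 passed without pig 1 and 24 and 25 without pig 6. At 48 h 0 passed without the SCS library of pig 5 of that time, and 15 without the HOPE 0 h library of pig 6, which left 10 at 24 h. With equal total counts 0 passed at 24 h and 37 at 48 h, all 37 higher in HOPE.

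At 48 h, 3 of the 7 calls came from the list of ezrin, radixin, moesin and partners. That was 3 of its 10 tested genes, against 6.25% of all genes called. The lists were chosen with earlier results of these data known. As given above, leaving out certain single pigs removed every list call at 24 and 48 h. Leaving out a single SCS library did so at 48 h. Equal total counts left no list call lower in HOPE. These limits hold for the calls without the block here and in the next paragraph. NHERF1, a scaffold that binds ezrin, was lower in HOPE, with a log2 difference of -1.22 ± 0.28 (SE; limma adjusted p = 0.0245) and 44.7 ± 10.6 normalized counts against 104 ± 13.3 in SCS (SD, n = 3). The membrane receptor CD44, which ezrin family proteins anchor, was lower, at -0.85 at 24 h and -0.62 at 48 h (limma adjusted p = 0.0304 and 0.0433). At 24 h it held 404 ± 12.2 normalized counts in HOPE and 731 ± 11.8 in SCS. ROCK2, a kinase downstream of RhoA, was lower, at -0.91 at 48 h (limma adjusted p = 0.0443). EZR itself was higher in HOPE at both times.

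Among Rac regulators and targets, TRIO, an exchange factor that activates Rac, was higher in HOPE at 48 h by 0.83 ± 0.25 (limma adjusted p = 0.0499), with 1229 ± 379 normalized counts against 671 ± 102 (SD, n = 3). CYBA, a subunit of the NADPH oxidase that RAC2 serves, was lower, at -1.05 (limma adjusted p = 0.0387). The GTPase RHOC was lower, at -0.92 at 24 h (limma adjusted p = 0.0491). Among filament proteins CORO1A was lower, at -1.28 at 24 h and -1.15 at 48 h (limma adjusted p = 0.0474 and 0.0430), and the actin monomer binder PFN1 was at -0.77 at 48 h (limma adjusted p = 0.0365). CORO1A is also one of the leukocyte markers whose sum is given above. None of the 8 tested WAVE subunits and none of the 12 Arp2/3 genes passed in HOPE against SCS without the block. With the block, 3 of the 12 Arp2/3 genes were lower in HOPE at 24 h and 3 at 48 h, against 9.87% and 11.5% of all genes called. No WAVE subunit passed with the block.

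Against 0 h, none of the 86 passed in SCS or HOPE at 12, 24 or 48 h. At 48 h of SCS 13 had an unadjusted limma p below 0.05, edgeR and DESeq2 called 0, and the fit with the pig block called 4, against 2.18% of all genes. These were the GTPase RHOQ, higher by 0.96 (limma adjusted p = 0.0228), and 3 lower genes: the WAVE subunit WASF2 (-0.80; 0.0499), the Rac exchange factor DOCK1 (-0.78; 0.0479) and the leukocyte plastin LCP1 (-0.76; 0.0317). In this block none of the 86 passed without SCS pig 5 or its 48 h library. None passed either without HOPE pig 2 or 4, and RHOQ alone passed without HOPE pig 6. These HOPE pigs enter only through the shared spread and the adjustment. Without pig 1, 3 passed, all higher (RHOQ and the kinases ROCK1 and SLK), and without pig 3, 2 higher and 9 lower. With equal total counts and the block, 77 passed, all lower.

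In arm 2 the values are TPM, which are divided by gene length, so genes can be compared. EZR stood at 86.6 and 51.9 TPM after 3 h of HOPE, at 64.2 and 70.1 after 24 h and at 64.5 and 77.8 after 48 h, and at 33.7 in the library after SCS. CYFIP2 stood at 10.1 and 1.14, 2.08 and 3.70, and 1.93 and 6.35 TPM in the same HOPE groups, and at 0.981 after SCS. RAC2 stood at 1.81 and 1.67, 1.26 and 1.57, and 1.66 and 1.71 TPM, and at 5.25 after SCS. EZR was thus the highest of the 3 genes in each of the 7 libraries, RAC2 was below CYFIP2 in 5 of the 6 HOPE libraries, and in the SCS library RAC2 lay above CYFIP2. RDX held 16.1 to 30.9 TPM and MSN 33.2 to 83.1 in the HOPE libraries, and EZR exceeded RDX in all 7.

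No difference between HOPE storage times was detected for any member after NMP with 2 libraries a group. Over 10986 genes limma called 0% in each of the 3 comparisons of times, 0 of the 9 member tests passed, and 0 had an unadjusted p below 0.05. From 3 h to 48 h the log2(TPM + 1) differences were 0.08 ± 0.33 for EZR, -0.07 ± 0.77 for CYFIP2 and -0.03 ± 0.29 for RAC2 (SE). CYFIP2 spread 8.86-fold over the 6 HOPE libraries, between 10.1 and 1.14 TPM in the group stored for 3 h. In these 2 libraries mesothelium and epithelium markers (6 of 10 found) summed to 147 and 6.83 TPM, in the same order. The sums were 22.4 to 30.8 TPM in the HOPE libraries after 24 and 48 h, and 6.98 after SCS. The part of these markers in the CYFIP2 and EZR values was not tested.

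RAC2 was higher in the SCS library than in the libraries after 24 h of HOPE, by 1.38 ± 0.35 on the log2(TPM + 1) scale (limma adjusted p = 0.0282). SCS had 1 library here, whose spread was assumed to equal that of the other groups. In the same fit EZR differed by -0.97 ± 0.40 (limma adjusted p = 0.107) and CYFIP2 by -0.94 ± 0.94 (limma adjusted p = 0.476). The comparison called 26.4% of all genes, 2699 lower and 198 higher, with a median of -0.73. Relative to that median RAC2 lay at 2.10, above 97.6% of genes, and EZR and CYFIP2 at -0.25 and -0.22. Median-ratio scaling of the libraries gave -0.11 for EZR and -0.41 for CYFIP2. With median-ratio scaling, which put 594 called genes higher and 864 lower, RAC2 differed by 2.04 (limma adjusted p = 0.0109). Without either HOPE 24 h library the RAC2 call was lost (limma adjusted p = 0.110 and 0.0977).

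The composition of that SCS library moved with RAC2. Leukocyte markers summed to 472 TPM in it and to 136 to 239 in the 6 HOPE libraries, and T and NK cell markers to 93.6 against 17.4 to 59.9. Per 1000 TPM of leukocyte markers RAC2 stood at 11.11 in the SCS library, above the libraries after 24 h of HOPE (6.56 and 8.87) and below those after 3 h (11.4 and 12.3). Per 1000 TPM of T and NK cell markers it stood at 56.1, between the libraries after 24 h of HOPE (41.6 and 72.3). In arm 2 these sums rest on 7 of the 10 leukocyte markers and 10 of the 12 T and NK cell markers. Per 1000 TPM of cardiomyocyte markers (8 of 12 found) EZR stood at 13.4 in the SCS library and at 0.892 to 1.64 in HOPE, the reverse of its TPM. The 10 most abundant genes took 63.9% of the TPM in the SCS library, against 37.8 to 47.9% in HOPE. The part of this composition in the RAC2 and EZR values was not tested.

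Among the pathway genes 67 were tested in arm 2, and 12 passed between SCS and HOPE at 24 h, a share of 17.9% below the 26.4% of all genes. With a HOPE 24 h library left out 3 passed. Median-ratio scaling gave 8 higher and 3 lower, in place of 3 higher and 9 lower. The 3 higher without that scaling were the blood cell WAVE subunit NCKAP1L (1.23; limma adjusted p = 0.0403), the NADPH oxidase subunit NCF1 (1.64; 0.0378) and the Rac GTPase-activating protein ARHGAP25 (1.52; 0.0373). The 9 lower included CFL2, the cofilin of muscle (-2.93; limma adjusted p = 0.00388), ROCK2 (-2.71; 0.00546), PFN1 (-2.69; 0.00738), the exchange factors ARHGEF6 (-1.95) and ARHGEF7 (-1.69), and RDX (-1.44; 0.0257).

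**Figure D5:**
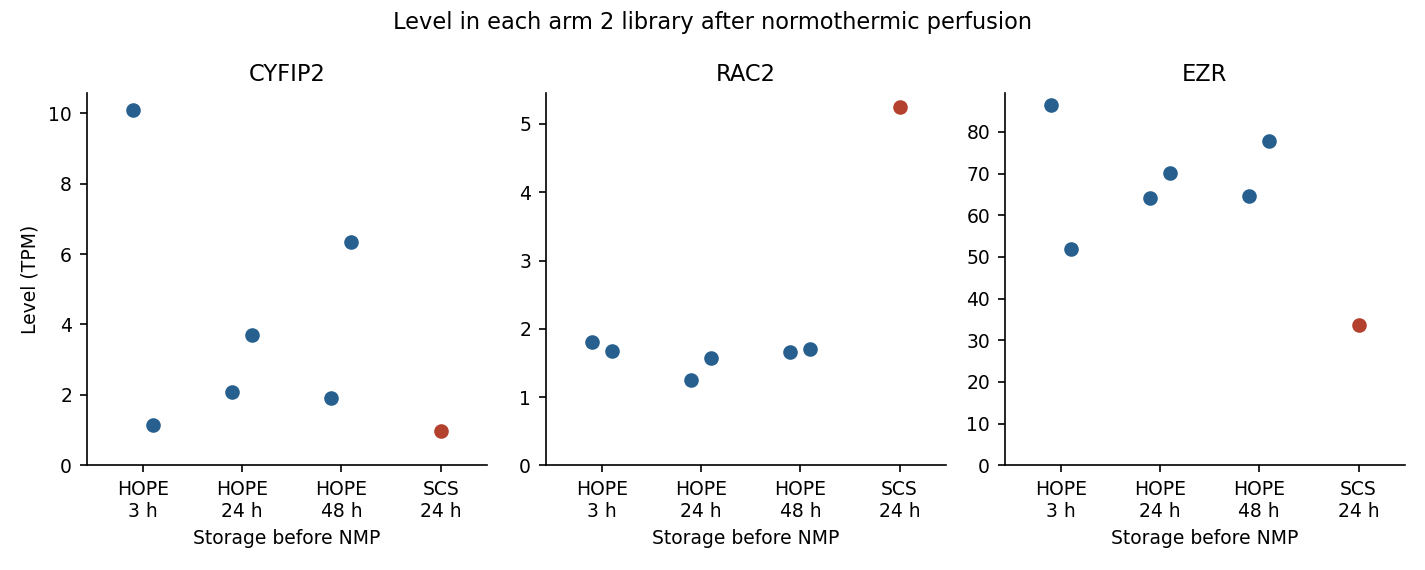
TPM of CYFIP2, RAC2 and EZR in each of the 7 arm 2 libraries by storage before NMP, HOPE in blue and SCS in red, each point 1 library. In the SCS library RAC2 stands at 5.25 against 1.26 to 1.81 in HOPE, and EZR at 33.7 against 51.9 to 86.6. By median-ratio scaling, not drawn, EZR was 49.8 against 53.4 to 76.7.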

How the data were processed

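Arm 1 values are a signal deposited by the authors as normalized counts, per the file headers. In every library all values (100%) were whole multiples of a single smallest step (tolerance 1e-06), which gave back whole reads. The deposited arm 2 columns each summed to 1000000 and were read as TPM, of unknown depth; 11 other columns were not used. The submitters' processing notes list the aligners STAR 2.5.2b and HISAT2 2.2.1, the counters Subread 1.5.2 and featureCounts 2.0.6, DESeq2 and the build Sscrofa11.1, without saying which arm each served or how strand was treated. Per the labels' protocols, the arms used different library kits, so tests stayed within an arm.

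Each arm was fitted once with limma 3.58.1 (R 4.3.3) on log2(value + 1), for genes with a mean of at least 10 (arm 1, 14141 genes) or 1 (arm 2, 10986 genes). This scale understates changes of low genes. P-values were adjusted by Benjamini-Hochberg over all genes of a comparison, threshold 0.05. The deposited values were also tested as whole reads with edgeR 4.0.16 and DESeq2 1.42.0 in arm 1. The script was tested on simulated data.

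Pigs pair the arm 1 libraries: in each of 18 same-pig pairs per condition, deviations from group means correlated (r of 0.232 to 0.720 in SCS, 0.399 to 0.730 in HOPE). The pig was a fixed block for changes over time and a random one, with a fitted within-pig correlation of 0.44, where the treatments were compared. P-values without the block treat the libraries of a pig as independent, which these correlations go against. Those with the fixed block measure the spread within pigs, after differences between pigs are removed. Each group rests on 3 pigs in either case. The labels do not say whether arm 2 libraries of a group came from separate hearts, so p-values there may measure technical spread. CYFIP1, RAC1 and RAC3 were not found in the arm 2 table.

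The members and lists were chosen with earlier results of these data known. Named are the members, their paralogs, up to 6 passing genes per list and comparison, and the 5 genes most correlated with each member. Gene positions came from RefSeq by symbol.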

Additional observations from a re-analysis of the deposited data

Results flagged for a closer look

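EZR changed in opposite directions in the SCS and the HOPE pigs. Its mean change from 0 h on the log2(normalized count + 1) scale was -0.37 in SCS and 0.40 in HOPE at 24 h, and -0.72 in SCS and 0.46 in HOPE at 48 h. At both times all 3 SCS pigs lay below their own 0 h level and all 3 HOPE pigs above it. No p is given for the difference, which contains the comparison by which EZR was chosen. Without pig 6, the HOPE pig with the low 0 h level, the HOPE changes at 48 h were 0.25 and 0.32.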

How the results depend on the processing

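The depth limits CYFIP2 and RAC2 more than EZR in arm 1 and is unknown in arm 2. With 3 pigs a group, or 2 libraries and 1 library in arm 2, counts of calls turned on single animals. Alternatives without the HOPE 0 h library of pig 6, and with whole pigs left out under the pig block, were chosen after seeing the data. Of the alternative values for members, 666 kept their direction and their side of the threshold, 32 changed sign, 6 moved, 9 passed a threshold not passed before and 2 lost it. Where a value below changed, the cause was not tested.

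Scaling to equal total counts gave 3.71 for CYFIP2 between HOPE and SCS at 48 h, 1.19, 1.65 and 2.80 for EZR at 12, 24 and 48 h, and -1.12, -0.98 and 0.17 for RAC2. Against 0 h in SCS, with or without the replicate block, it gave -0.66 for CYFIP2 at 48 h, -0.24 for EZR at 12 h and -1.70 at 48 h, and -0.14 for RAC2 at 12 h and -1.40 at 48 h, where EZR and RAC2 passed. The replicate block kept the EZR change at 48 h of SCS at -0.72 and took it past the threshold, also without the HOPE 0 h library of pig 6 (-0.72), pig 1 (-0.82), pig 3 (-0.68) or pig 6 (-0.72). Under the block CYFIP2 at 12 h of HOPE was -0.25 without pig 6 and -0.11 without its 0 h library, and without the block -0.31. CYFIP2 at 24 h of HOPE was 0.12 without pig 4, and EZR at 12 h of SCS -0.078 and RAC2 at 24 h of SCS 0.12 without pig 1. Without the block and without the 0 h library of pig 6, CYFIP2 at 48 h of HOPE was -0.13 and EZR at 12 h -0.040. After NMP, a pseudocount of 0.1 gave 0.023 for CYFIP2 from 3 to 48 h, and median-ratio scaling -0.31 for EZR from 3 to 24 h. Arm 2 libraries share only a number, and a replicate block on it called no member.

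With each pig of arm 1 or each library of arm 2 left out in turn, CYFIP2 ranged from -0.25 to 0.76 at 12 h of HOPE and from -0.69 to 0.12 at 24 h. After NMP it ranged from -1.55 to 0.83 (24 against 3 h), from -0.38 to 0.95 (48 against 24 h) and from -1.26 to 1.12 (48 against 3 h). EZR ranged from -0.078 to 0.14 at 12 h of SCS, and after NMP from -0.36 to 0.36, from -0.056 to 0.21 and from -0.29 to 0.44 in the same 3 comparisons. RAC2 ranged from -0.30 to 0.12 at 24 h of SCS and from -0.064 to 0.0057 after NMP (48 against 3 h). In the SCS library against 24 h of HOPE it ranged from 1.28 to 1.47, and the call was lost at both ends.

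Counts of genes called also moved. For HOPE against SCS, DESeq2 called 11, 86, 1521 and 1931 genes at 0, 12, 24 and 48 h, where limma called 0, 2, 288 and 884. The replicate block called 6, 1396 and 1628 at 12, 24 and 48 h, and equal total counts 1, 3 and 8112. Fitting the 6 libraries of a time alone left 0 calls at 12, 24 and 48 h, and no filter on low values 2 at 0 h and 114 at 24 h. With a pig left out the counts ranged from 0 to 337, 0 to 1432, 2 to 2721 and 5 to 3282. At 48 h of SCS, where limma called 0, DESeq2 called 22, no filter 8, the replicate block 308, equal total counts 5591, and the fits without a pig 0 to 1. In HOPE against 0 h DESeq2 called 4 genes at 24 h and 2 at 48 h, and the block 1 at 48 h. After NMP, 48 against 24 h of HOPE gave 2 calls with median-ratio scaling and 3 with a minimum mean of 10. The SCS library against 24 h of HOPE gave 1458 with median-ratio scaling, 1886 with no filter and 532 to 2912 with a library left out, against 2897.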
